A study of Mus musculus with 3 samples.

Results

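The histone mark H3K36me3, which is lysine 36 of histone H3 carrying 3 methyl groups, was examined over 9 genes of PI3K and mTOR signalling in mouse regulatory T (Treg) cells of the spleen and the large intestine. The genes were chosen by their role in the pathway: Pik3cd, Pik3r1, Inpp5d, Akt1, Tsc1, Tsc2, Mtor, Rptor and Rictor. All 9 held H3K36me3 peaks, out of 11946 genes with at least 1 peak whose midpoint lay in the gene body, and together they held 298 of the 120910 peaks of the series. The cells were CD3+CD4+ and positive for the YFP that the Foxp3Cre-YFP allele expresses from the Foxp3 locus, which every mouse used here carried, and they came from adult C57BL/6 mice at steady state. Cells of 7 male and 7 female mice were pooled and gave 1 chromatin immunoprecipitation sequencing (ChIP-seq) library per tissue, and the input library was not analysed here. Pooling leaves no view of differences between mice, and every tissue difference below is a difference between 2 libraries, with no replicate check and no p-value.

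Setd2 deposits H3K36me3 behind elongating RNA polymerase II, so the mark lies over the bodies of transcribed genes and usually grows toward their ends. Receptors that activate class I PI3K recruit its regulatory and catalytic subunits to the membrane, where the kinase makes a phosphoinositide that draws in the kinase Akt, while lipid phosphatases remove that signal. Akt inactivates the Tsc1-Tsc2 complex, which otherwise restrains the kinase mTOR, and mTOR works in one complex built on Raptor (Rptor) and another built on Rictor. In mice, Treg cells need the delta catalytic subunit of PI3K and Raptor for full suppressive function.

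The deposited value of a peak is its mean read coverage in RPKM, that is, per kilobase and scaled to the sequencing depth. A gene's signal was the sum of these means over its peaks, and large intestine was set over spleen as a log2 ratio after adding 0.5 RPKM to each sum and scaling each library to its total over all peaks, which was 1.03 times higher in large intestine. The approximate 95% intervals given below cover counting error only. With read coverage assumed to be binned by 20 bp, the values implied a depth of 29600000 mapped reads for spleen and 38100000 for large intestine. All 6 markers of T and Treg cells had peaks, with a level per length of 4.62 to 20.3 RPKM in spleen and 3.92 to 18.1 RPKM in large intestine. Of the markers of other cells, Cd79a and Pax5 of B cells reached at most 2.87 and 1.87 RPKM, 1 of 4 for myeloid cells 1.29 and 1.47 RPKM, and 2 of 4 for epithelium 0.68 and 1.29 RPKM, and Ms4a1, Lyz2, Itgam, Adgre1, Cdh1 and Krt8 held no peak.

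Across the 9 genes, the mark differed little between the tissues, with Pik3cd over 25% higher in spleen and Tsc2 and Akt1 over 25% higher in large intestine. These 2 genes compared with 19.6% of the 10886 genes tested that were over 25% higher in large intestine, and the 1 gene with 15.7% in spleen. The other 6 were within this threshold and none was past 2-fold, which 3.42% of all genes were in large intestine and 2.04% in spleen. The counting interval lay above 0 for 4 genes (17.5% of all genes), below 0 for 1 gene (15.0%) and included 0 for 4 genes. The median log2 ratio of the 9 genes was 0.09, beside 0.0049 for all genes tested, of which the middle 50% lay between -0.20 and 0.24. In bulk chromatin, less of the mark in every cell and fewer cells that carry it cannot be told apart.

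**Figure D1:**
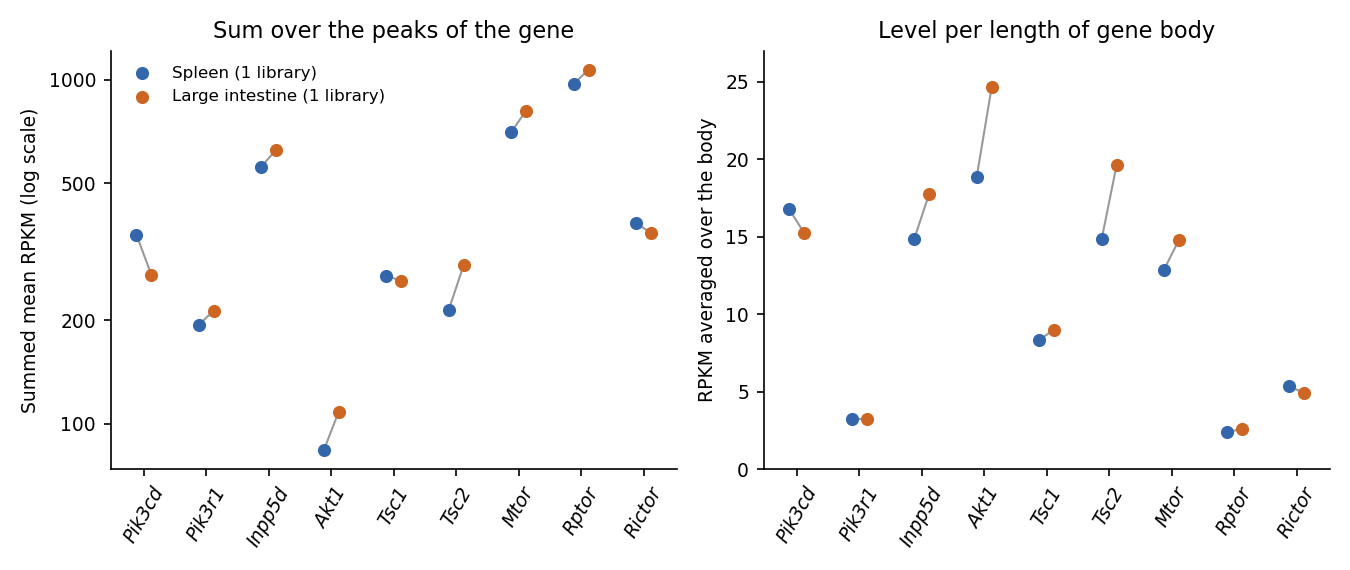
H3K36me3 over the 9 genes in spleen (blue) and large intestine (orange) Treg cells, 1 library each. The left panel gives the sum of peak means in RPKM on a log axis and the right panel gives RPKM averaged over the length of the gene body. Pik3cd has 355 RPKM in spleen against 271 RPKM in large intestine, while Tsc2 and Akt1 are higher in large intestine.

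Per length of gene body, which is the scale on which genes can be compared with each other, the 9 genes fell into strongly and weakly marked ones. Akt1 had a level of 18.9 RPKM in splenic and 24.7 RPKM in intestinal Treg cells, Pik3cd 16.8 and 15.2 RPKM, Inpp5d 14.9 and 17.8 RPKM, Tsc2 14.8 and 19.6 RPKM, and Mtor 12.9 and 14.8 RPKM. Peaks covered 74.3% to 84.5% of these 5 bodies, and each level was above that of at least 84.2% of the protein-coding genes tested in both libraries. Tsc1 was intermediate with 8.34 and 9.0 RPKM. Rictor (5.35 and 4.93 RPKM), Pik3r1 (3.26 and 3.23 RPKM) and Rptor (2.39 and 2.59 RPKM) lay near or below the median of the 9456 protein-coding genes, which was 4.95 RPKM in splenic and 5.20 RPKM in intestinal Treg cells. In Pik3r1 and Rptor the peaks covered 20.2% and 18.7% of the body, against a median of 39.2%. The kinase Akt1 was the highest per length in both libraries and the long gene Rptor the lowest.

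Pik3cd encodes the delta catalytic subunit of class I PI3K, the form that leukocytes use most. It spans chr4:149649168-149702571 on the minus strand (mm10) and held 24 peaks. Their means summed to 354.9 RPKM in splenic and 271.3 RPKM in intestinal Treg cells, a log2 ratio of -0.43 (interval -0.57 to -0.29). Of the 24 peaks, 21 were higher in spleen, and of the 7 peaks of 1 kb or more all 7 were. For comparison, 48.6% of all peaks in gene bodies, and 51.1% of those of 1 kb or more, were higher in large intestine. Only 1128 of the 10886 genes tested had a lower ratio than Pik3cd.

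In the sum of peak means, which counts a short peak as much as a long one, most of this difference lay in the upstream stretch of Pik3cd. When the gene body was cut into 4 equal sections from start to end, the log2 ratios were -0.59, -0.57, -0.19 and -0.12. The 19 peaks of the upstream 2 sections summed to 243.6 RPKM in splenic and 167.9 RPKM in intestinal Treg cells, and 17 of them were higher in spleen. The 5 peaks of the downstream 2 sections summed to 111.3 and 103.4 RPKM. Averaged over the bases the peaks cover, the upstream sections had 13.9 RPKM in splenic and 9.91 RPKM in intestinal Treg cells over 14.4 kb. The downstream sections had 29.2 and 28.3 RPKM over 29.6 kb. The share of each part in a length-weighted difference was not computed. The ratio of the downstream part exceeded that of the upstream part by 0.43 (interval 0.18 to 0.68), whereas the median of this difference over 6555 genes was 0.059, with the middle 50% between -0.16 and 0.28. The difference was 0.44 when peaks were weighted by their length and 0.39 after correction for GC content. Median peak GC content was 50.2% in the upstream part and 50.2% in the downstream part.

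The broadest Pik3cd peak, chr4:149644910-149659264, was 14.4 kb long, ran past the end of the gene and had 39.5 RPKM in splenic and 39.2 RPKM in intestinal Treg cells (log2 ratio -0.06, interval -0.15 to 0.03). Of its length, 3.99 kb (27.8%) lay over the end of Clstn1, which runs toward Pik3cd on the other strand, so its reads cannot be assigned to Pik3cd alone. It carried 55.3% of the signal of Pik3cd when peaks were weighted by length. The next, 10.4 kb long at chr4:149667034-149677402, had 18.4 and 17.5 RPKM (log2 ratio -0.12, interval -0.28 to 0.04). A length-weighted sum, in which these broad peaks dominate, gave Pik3cd a log2 ratio of -0.16 (interval -0.23 to -0.09), which is under the 25% threshold. The upstream peaks were shorter and lower, and the one of at least 1 kb that differed most was chr4:149688642-149690580, with 15.6 RPKM in splenic and 9.84 RPKM in intestinal Treg cells (log2 ratio -0.68, interval -1.13 to -0.23).

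The upstream and downstream parts are split at the middle of the body, 26.7 kb from its start, and not at a point located from the values. Past it, the peak chr4:149665491-149666033 had 11.7 and 7.07 RPKM (log2 ratio -0.73, interval -1.71 to 0.26). Annotated starts of shorter Pik3cd transcripts lie 26.5 and 28.4 kb into the gene, inside the 10.4-kb peak, and another lies at 39.3 kb. Of the 4 member promoter windows that a peak overlapped, 3 belonged to Pik3cd and 1 to Mtor, out of 13 windows of the 9 genes in RefSeq. To show a stretch of each part, the sequences below are the middle 300 bases of the upstream peak that differed most (chr4:149689462-149689761) and the 250 bases before the RefSeq start inside the 10.4-kb peak (chr4:149676090-149676339), both on the minus strand of GRCm38.p6, with CG dinucleotides, the sites of DNA methylation, in capitals.
Pik3cd upstream peak: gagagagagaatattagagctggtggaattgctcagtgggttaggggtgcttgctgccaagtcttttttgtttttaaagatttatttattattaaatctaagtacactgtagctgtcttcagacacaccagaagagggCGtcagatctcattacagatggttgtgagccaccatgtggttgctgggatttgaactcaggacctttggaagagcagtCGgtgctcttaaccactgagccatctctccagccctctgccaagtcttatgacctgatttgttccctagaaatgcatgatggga
Pik3cd internal promoter: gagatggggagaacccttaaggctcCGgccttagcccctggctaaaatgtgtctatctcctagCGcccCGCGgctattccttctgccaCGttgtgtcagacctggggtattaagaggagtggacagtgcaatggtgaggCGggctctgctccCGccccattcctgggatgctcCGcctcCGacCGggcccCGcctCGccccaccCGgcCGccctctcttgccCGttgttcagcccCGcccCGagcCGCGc
The upstream window held 2 CG dinucleotides at 44.7% GC. The internal promoter held 19 at 66.0% GC, and the median over 32851 RefSeq promoters was 6 in these 250 bases. These windows are unlike in kind, being part of an intron peak and a promoter. They do not stand for the base content of the parts, whose median peak GC content was 50.2% in each.

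**Figure D2:**
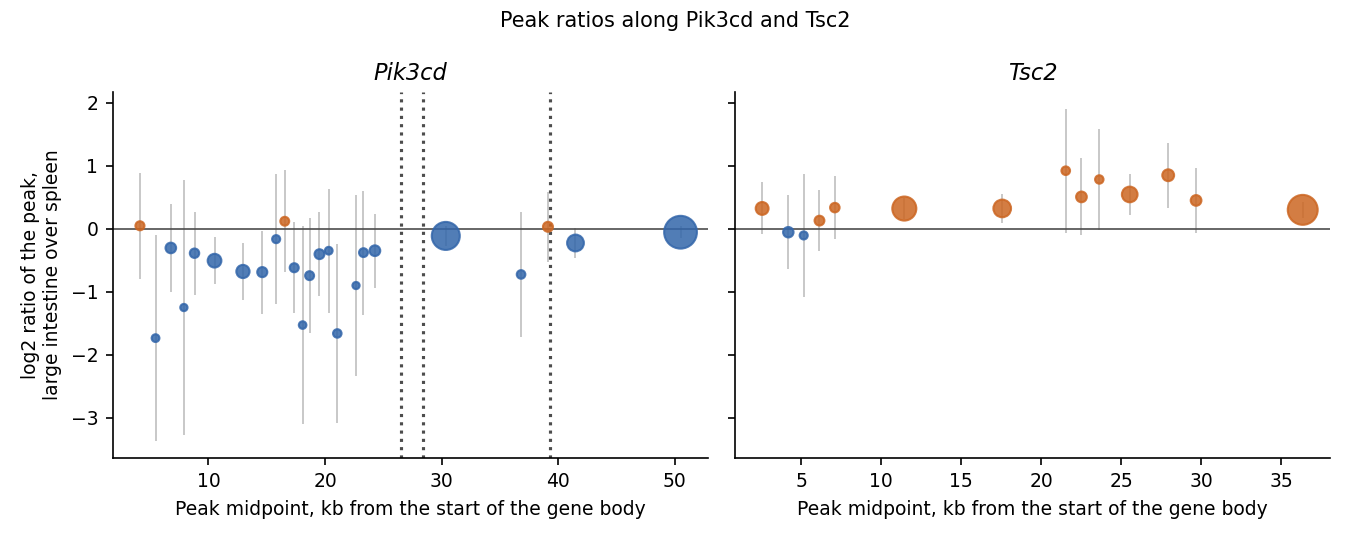
Ratio of large intestine over spleen (log2) for each peak of Pik3cd (left) and Tsc2 (right) against the distance of its midpoint from the start of the gene body in kb. The area of a point grows with peak length, blue points are higher in spleen and orange ones in large intestine, bars are 95% counting intervals and dotted lines mark internal transcript starts of Pik3cd. The peaks of Pik3cd upstream of the dotted lines lie mostly below 0, and the 7 downstream peaks of Tsc2 all lie above it.

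The nearest marked genes on either side of Pik3cd did not share its direction. Clstn1, which ends 269 bp from the end of Pik3cd on the other strand, had 73.1 RPKM in splenic and 123.2 RPKM in intestinal Treg cells (log2 ratio 0.70, interval 0.34 to 1.07). This sum leaves out the 14.4-kb peak (log2 ratio -0.06), which its midpoint assigned to Pik3cd although 3.99 kb of it lay over Clstn1. Tmem201, 12.8 kb upstream, had 108.9 and 137.9 RPKM (log2 ratio 0.29, interval 0.07 to 0.52).

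Pik3r1 encodes the regulatory subunits that stabilise the catalytic subunit and bring it to phosphorylated receptors. It spans chr13:101680563-101768217 on the minus strand, and its 18 peaks summed to 194.4 RPKM in splenic and 213.6 RPKM in intestinal Treg cells (log2 ratio 0.09, interval -0.12 to 0.30). The ratio of the regulatory gene exceeded that of the catalytic gene Pik3cd by 0.52 (interval 0.27 to 0.78), and by 0.66 after GC correction. With peaks weighted by length the difference was 0.10 (interval -0.04 to 0.25), and between the strongest peaks alone its sign turned to -0.19 (interval -0.40 to 0.01). The mark was concentrated at the end of Pik3r1: section 2 held no peak, and section 4 held 72.8% of the length-weighted signal in spleen and 70.1% in large intestine. A single 5.8-kb peak, chr13:101683745-101689529, carried 49.1% of that signal and pointed to spleen, with 25.9 against 22.4 RPKM (log2 ratio -0.25, interval -0.44 to -0.07). The 15 peaks before the start of the short Pik3r1 transcript, 75.6 kb into the gene, summed to 145.9 and 163.0 RPKM, and the 3 peaks after it to 48.5 and 50.5 RPKM. The sign of the Pik3r1 ratio thus depended on whether the short peaks or the long one were given weight.

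Inpp5d encodes SHIP1, the blood-cell phosphatase that removes the phosphoinositide made by PI3K. It spans chr1:87620312-87720507 on the plus strand, and its 43 peaks summed to 560.2 RPKM in splenic and 627.1 RPKM in intestinal Treg cells (log2 ratio 0.12, interval 0.0069 to 0.23). Its 9 peaks of 3 kb or more included 7 that were higher in large intestine. The longest peak among all 9 genes, 19.7 kb at chr1:87703510-87723170, covered the end of Inpp5d with 25.6 RPKM in splenic and 32.7 RPKM in intestinal Treg cells (log2 ratio 0.30, interval 0.21 to 0.39). Weighted by length, the log2 ratio of Inpp5d was 0.22 (interval 0.16 to 0.27). The interval of the summed ratio included 0 after GC correction (0.07, interval -0.04 to 0.18) and with peaks wholly inside the gene (0.11, interval -0.0084 to 0.22). The ratio of Inpp5d exceeded that of Pik3cd by 0.55 (interval 0.37 to 0.73), by 0.64 after GC correction and by 0.36 between their strongest peaks. Gigyf2, 169.5 kb upstream of Inpp5d, had a log2 ratio of -0.19 (interval -0.33 to -0.06), and Atg16l1, 35.4 kb downstream, had 0.03 (interval -0.16 to 0.21).

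Akt1 encodes the kinase that relays the PI3K signal. The gene is short (chr12:112653821-112674884, minus strand) and its 4 peaks, all over 1 kb, covered 84.5% of it. The peaks summed to 83.9 RPKM in splenic and 108.7 RPKM in intestinal Treg cells, a log2 ratio of 0.33 (interval 0.22 to 0.43) or 25.4% more, just past the threshold. Each of the 4 was higher in large intestine, by 0.23 to 0.41 on the log2 scale. The broadest of them, 6.7 kb over the end of the gene at chr12:112653350-112660059, had 29.4 RPKM in splenic and 40.4 RPKM in intestinal Treg cells (log2 ratio 0.41, interval 0.26 to 0.55). Its nearest marked neighbours leaned the same way: Zbtb42 upstream had 11.8 and 32.2 RPKM (log2 ratio 1.36, interval 0.76 to 1.97), and Siva1 downstream had 13.3 and 16.3 RPKM with an interval that included 0 (-0.17 to 0.65).

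GC content moved with these ratios. Over all peaks the median log2 ratio was -0.41 in the GC-poorest 10% and 0.29 in the GC-richest 10%, and in peaks of 1 kb or more it was -0.25 and 0.20. Akt1 had the highest median GC content of the 9 genes, 56.9%, and Rictor the lowest, 42.1%. Dividing out the median ratio of peaks of like GC content took Akt1 from 0.33 to 0.06 (interval -0.05 to 0.17), Tsc2 from 0.39 to 0.19 (interval 0.06 to 0.33), Rictor from -0.14 to 0.0095 (interval -0.14 to 0.16) and Pik3cd from -0.43 to -0.57 (interval -0.71 to -0.43). As examples, the middle 300 bases are printed for the peak of at least 1 kb that differed most in Akt1 (chr12:112656555-112656854, minus strand) and in Rictor (chr15:6747728-6748027, plus strand). They are from GRCm38.p6, with CG dinucleotides in capitals.
Akt1 peak: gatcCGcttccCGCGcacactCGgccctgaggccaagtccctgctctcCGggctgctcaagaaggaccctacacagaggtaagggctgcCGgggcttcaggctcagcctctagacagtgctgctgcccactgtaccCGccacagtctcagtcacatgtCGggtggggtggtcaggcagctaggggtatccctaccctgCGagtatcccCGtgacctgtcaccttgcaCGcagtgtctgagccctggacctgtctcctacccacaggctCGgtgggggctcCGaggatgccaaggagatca
Rictor peak: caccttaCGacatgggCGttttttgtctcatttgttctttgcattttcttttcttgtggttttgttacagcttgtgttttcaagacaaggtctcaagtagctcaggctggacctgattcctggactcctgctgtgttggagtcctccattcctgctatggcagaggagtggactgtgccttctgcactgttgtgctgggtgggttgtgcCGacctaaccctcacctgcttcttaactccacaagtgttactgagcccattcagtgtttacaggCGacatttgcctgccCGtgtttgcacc
The Akt1 window held 13 CG dinucleotides at 63.7% GC, and the Rictor window 5 at 49.3% GC. Both windows were richer in GC than their whole peaks, which had 56.3% and 44.2%. The Rictor window was above the 46.5% median of all peaks, so it does not show the low GC content of that gene.

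**Figure D3:**
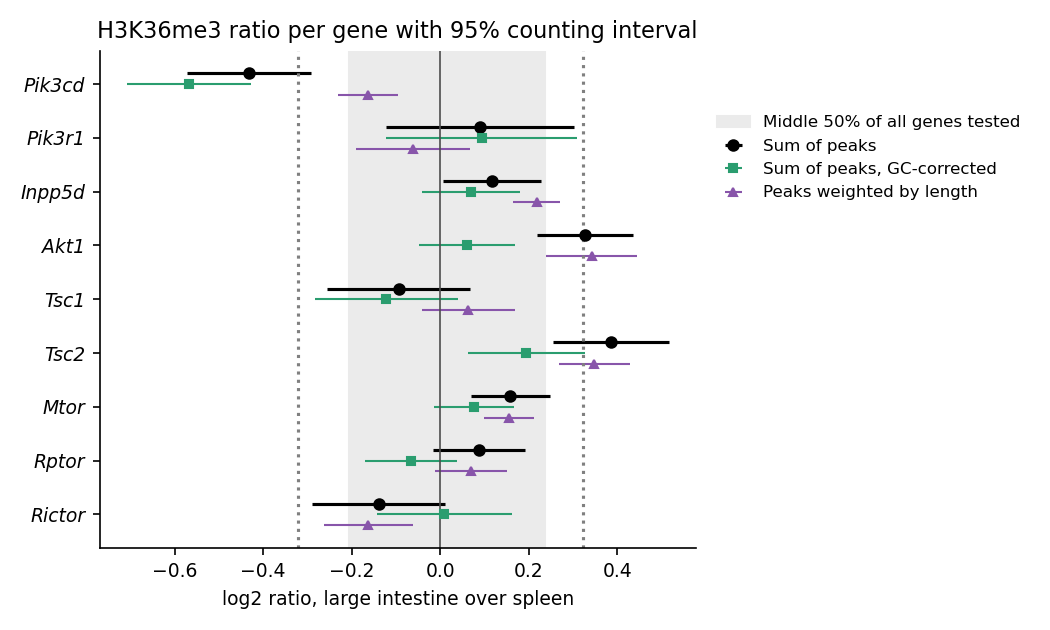
Ratio per gene (log2, large intestine over spleen) for the 9 genes, with 95% counting intervals, from the sum of peak means (black circles), the same sum corrected for GC content (green squares) and peaks weighted by length (purple triangles). The grey band is the middle 50% of all genes tested (-0.20 to 0.24), and dotted lines mark 25% more in either library. Pik3cd stays below 0 in all 3, while Akt1 moves from 0.33 to 0.06 with the GC correction.

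Tsc1 and Tsc2 encode the partners of the complex that holds mTOR in check, Tsc2 being the part that acts on the small GTPase Rheb. Tsc2 (chr17:24595816-24632630, minus strand) had 14 peaks that summed to 214.8 RPKM in splenic and 289.7 RPKM in intestinal Treg cells, a log2 ratio of 0.39 (interval 0.25 to 0.52). Of these peaks, 12 were higher in large intestine, as were 8 of its 9 peaks of 1 kb or more. Tsc1 (chr2:28641228-28691167, plus strand) had 21 peaks that summed to 269.6 and 260.8 RPKM, a log2 ratio of -0.09 (interval -0.25 to 0.07). The ratio of Tsc2 exceeded that of Tsc1 by 0.48 (interval 0.27 to 0.69), and by 0.32 after GC correction (interval 0.11 to 0.52), with a median peak GC content of 53.2% in Tsc2 and 47.3% in Tsc1. With peaks weighted by length it was 0.28 (interval 0.15 to 0.42), and between the strongest peaks -0.06 (interval -0.33 to 0.21).

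Along Tsc2, the log2 ratios of the 4 sections were 0.16, 0.32, 0.69 and 0.49. All 7 peaks of its downstream part were higher in large intestine, from 0.30 to 0.92 on the log2 scale. The downstream part exceeded the upstream part by 0.37 (interval 0.11 to 0.64), but by 0.10 when peaks were weighted by length. The peak of at least 1 kb that differed most, chr17:24603968-24605419, had 9.84 RPKM in splenic and 18.7 RPKM in intestinal Treg cells (log2 ratio 0.85, interval 0.33 to 1.36). An 11.9-kb peak at chr17:24590339-24602239 covered the end of Tsc2 and that of Pkd1, which overlap on opposite strands so that their reads cannot be told apart, with 22.5 and 28.7 RPKM (log2 ratio 0.30, interval 0.17 to 0.42). Zfp598, the nearest marked gene upstream, had a log2 ratio of 0.43 (interval 0.10 to 0.76). Downstream, Rab26, which is 61.6 kb away, had 0.10 with an interval that included 0 (-0.33 to 0.52).

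Tsc1 had no peak in its first 11.3 kb, and its first peak of 1 kb or more began 16.8 kb into the gene. This was 33.6% of its length, near the median of 34.3% over protein-coding genes with such a peak. The 5 peaks before its internal start at 17.3 kb summed to 55.4 RPKM in splenic and 44.1 RPKM in intestinal Treg cells, and the 16 after it to 214.2 and 216.6 RPKM. Its strongest peak, chr2:28677743-28682429, was higher in large intestine with 21.4 against 16.1 RPKM (log2 ratio 0.35, interval 0.12 to 0.59), so the sum over the gene and its strongest peak pointed in opposite directions.

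Mtor encodes the kinase shared by both complexes. It spans chr4:148448611-148557683 on the plus strand, and its 52 peaks summed to 706.4 RPKM in splenic and 814.0 RPKM in intestinal Treg cells, a log2 ratio of 0.16 (interval 0.07 to 0.25). Of the 52 peaks, 34 were higher in large intestine. After GC correction the ratio was 0.08 (interval -0.01 to 0.17). Mtor was marked from near its start: its first peak of 1 kb or more began 3.34% into the body, against a median of 34.3% over 7346 protein-coding genes with such a peak, and section 1 held 34.9% of its length-weighted signal in spleen and 35.5% in large intestine. In the median gene section 1 held 1.09% and 1.08%. The upstream part of Mtor held the larger tissue difference, with 283.8 RPKM in splenic and 346.7 RPKM in intestinal Treg cells (log2 ratio 0.24, interval 0.11 to 0.37), and 18 of its 21 peaks were higher in large intestine. In the downstream part 16 of 31 were, and the ratio was 0.10 (interval -0.02 to 0.22). The difference between the parts, -0.14, had an interval that included 0 (-0.32 to 0.04). The strongest Mtor peak, 8.2 kb long at chr4:148452255-148460476, had 23.5 and 28.1 RPKM (log2 ratio 0.21, interval 0.06 to 0.36).

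Mtor and Rptor each had a short peak at the start of the gene body. The Mtor peak, chr4:148448562-148448862, had 4.50 RPKM in splenic and 12.7 RPKM in intestinal Treg cells, but it was 301 bp long and its interval ran from -0.24 to 2.95. The 250 bases before the RefSeq start of Mtor (chr4:148448332-148448581, plus strand, GRCm38.p6) are shown because this peak overlaps them, with CG dinucleotides in capitals.
Mtor promoter: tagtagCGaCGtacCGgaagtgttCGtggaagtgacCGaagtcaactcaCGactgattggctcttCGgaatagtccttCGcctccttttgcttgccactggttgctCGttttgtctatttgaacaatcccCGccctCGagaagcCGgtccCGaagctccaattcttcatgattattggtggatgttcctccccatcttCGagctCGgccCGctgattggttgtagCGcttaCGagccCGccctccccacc
They held 19 CG dinucleotides at 54.4% GC, and 19.7% of RefSeq promoters had at least as many. Of the Mtor peaks, 3 lay in Angptl7, a gene inside Mtor on the other strand, so their reads could belong to either; the peak of 1 kb or more that differed most, chr4:148495754-148498154, was among them, with 16.0 and 24.2 RPKM (log2 ratio 0.54, interval 0.21 to 0.86).

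Rptor and Rictor encode the scaffolds that define the mTOR complexes, and they leaned in opposite directions. Rptor (chr11:119602905-119899576, plus strand), which directs mTOR to growth targets, had 88 peaks that summed to 975.8 RPKM in splenic and 1070 RPKM in intestinal Treg cells (log2 ratio 0.09, interval -0.02 to 0.19). Rictor (chr15:6708379-6800401, plus strand), which directs mTOR to Akt, had 34 peaks that summed to 383.1 and 359.1 RPKM (log2 ratio -0.14, interval -0.29 to 0.01). Each interval included 0, whereas the difference between them, 0.23, had an interval of 0.04 to 0.41. After GC correction it was -0.08 with an interval of -0.26 to 0.11, so the order of the scaffolds turned. Median peak GC content was 51.8% in Rptor and 42.1% in Rictor.

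Both scaffold genes were nearly bare of the mark at their start, as was the median gene, with 1.09% of its length-weighted signal in section 1 in spleen and 1.08% in large intestine. In Rptor the first peak of 1 kb or more began 122.0 kb into the gene, 41.1% of its length, against a median of 34.3% over protein-coding genes. Only 7 of its 88 peaks lay in the upstream 2 sections. Section 4 held 70.8% of the length-weighted signal in spleen and 72.8% in large intestine, against 38.2% and 39.5% in the median gene. In Rictor section 1 held no peak, and the first peak began 27.8 kb and the first of 1 kb or more 38.7 kb into the gene, 42.1% of its length. Rictor peaks of 1 kb or more were higher in spleen in 9 of 11 cases, and the largest such difference was at chr15:6747097-6748658, with 11.7 and 8.13 RPKM (log2 ratio -0.54, interval -1.10 to 0.02). The strongest peak of Rictor, chr15:6790924-6794815, had 18.5 and 16.0 RPKM (log2 ratio -0.25, interval -0.52 to 0.02). That of Rptor, chr11:119871888-119875500, had 17.1 and 19.5 RPKM (log2 ratio 0.14, interval -0.14 to 0.41). Fyb, the nearest marked gene upstream of Rictor at 45.1 kb, had a log2 ratio of -0.31 (interval -0.44 to -0.19) at a median peak GC content of 42.7%. Downstream of Rictor, Wdr70, which is 1073 kb away, had -0.04 with an interval that included 0 (-0.24 to 0.16).

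**Figure D4:**
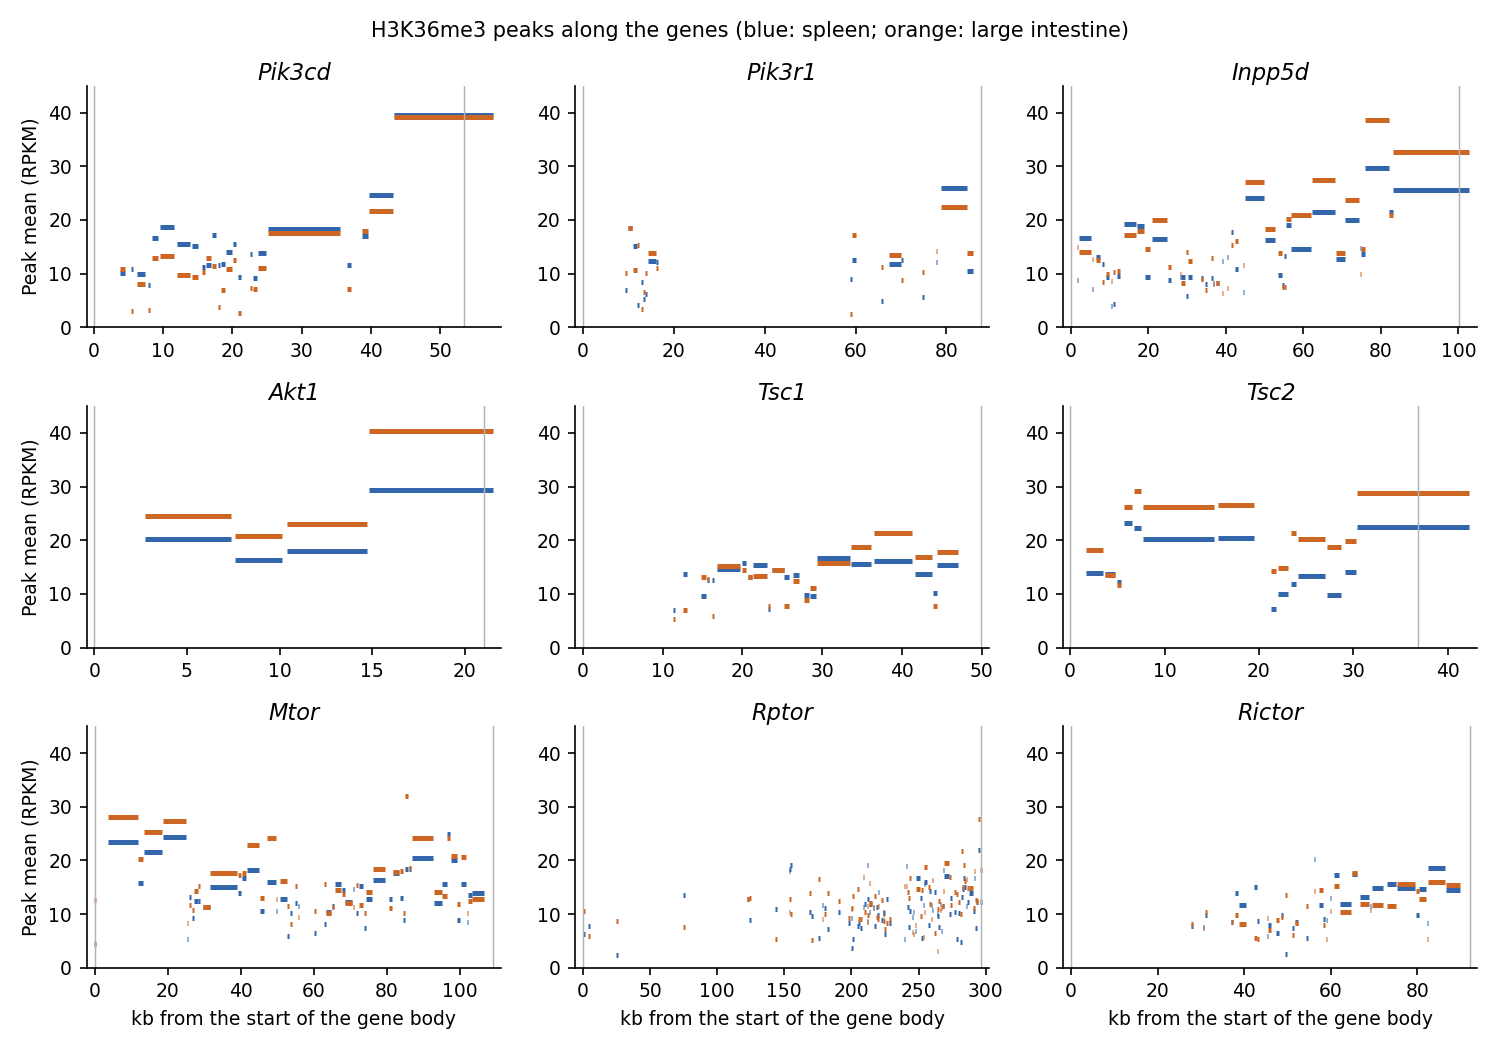
Mean RPKM of every peak of the 9 genes in spleen (blue) and large intestine (orange), drawn at its distance from the start of the gene body in kb, with grey lines at the start and end of the body. The large intestine lines lie above the spleen lines throughout Akt1 and over most of Tsc2 and the end of Inpp5d, below them in the upstream part of Pik3cd, and the start of Rictor and most of the upstream part of Rptor are empty.

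Peak by peak, 158 of the 298 peaks (53.0%) were higher in large intestine, and 140 were higher in spleen. Of all peaks in gene bodies, 48.6% were higher in large intestine. Introns held 267 of the peak midpoints, coding exons 16, untranslated regions 7, and stretches within 1 kb of a transcript start 8. Of the 298 peaks, 14 were over 2-fold higher in large intestine and 12 in spleen. These are smaller shares than the 8.79% and 9.65% of all peaks in gene bodies. Short peaks were noisy. Among the 94 peaks of 1 kb or more, 57 had the higher value in large intestine and 37 in spleen, while 51.1% of all such peaks were higher in large intestine. Of the 94, 14 and 7 differed by over 25%, which 15.3% and 14.5% of all such peaks did. Within a gene, the peak ratios of these 9 genes scattered by 0.83 to 1.26 counting errors. Over the 3988 genes with at least 10 peaks the median was 1.02, with the middle 50% between 0.91 and 1.12. Pik3cd (1.26), Pik3r1 (1.26), Inpp5d (1.20) and Rptor (1.15) scattered more than this range. Whether the spread of their peaks exceeds counting error was not tested, and its scale rests on reads taken to cover 200 bp. The lowest value, 0.83, was that of Akt1, which had only 4 peaks.

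The wider pathway was read from a list of 89 further genes in 9 roles, of which 88 were in the annotation, 77 had a peak and 76 had enough signal. Of these 76, 13 were over 25% higher in large intestine (17.1%) and 11 in spleen (14.5%), near the 19.6% and 15.7% of all genes, and the median log2 ratio was 0.01. By role, among the 6 PI3K catalytic genes 1 was past 25%, among the 4 tested kinases of the Akt role none, among the 3 genes of the TSC and Rheb role none, and among the 25 amino acid sensing genes 4 in each direction. The median of the gene GC contents was 55.5% for the 13 genes higher in large intestine and 43.9% for the 11 higher in spleen.

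**Figure D5:**
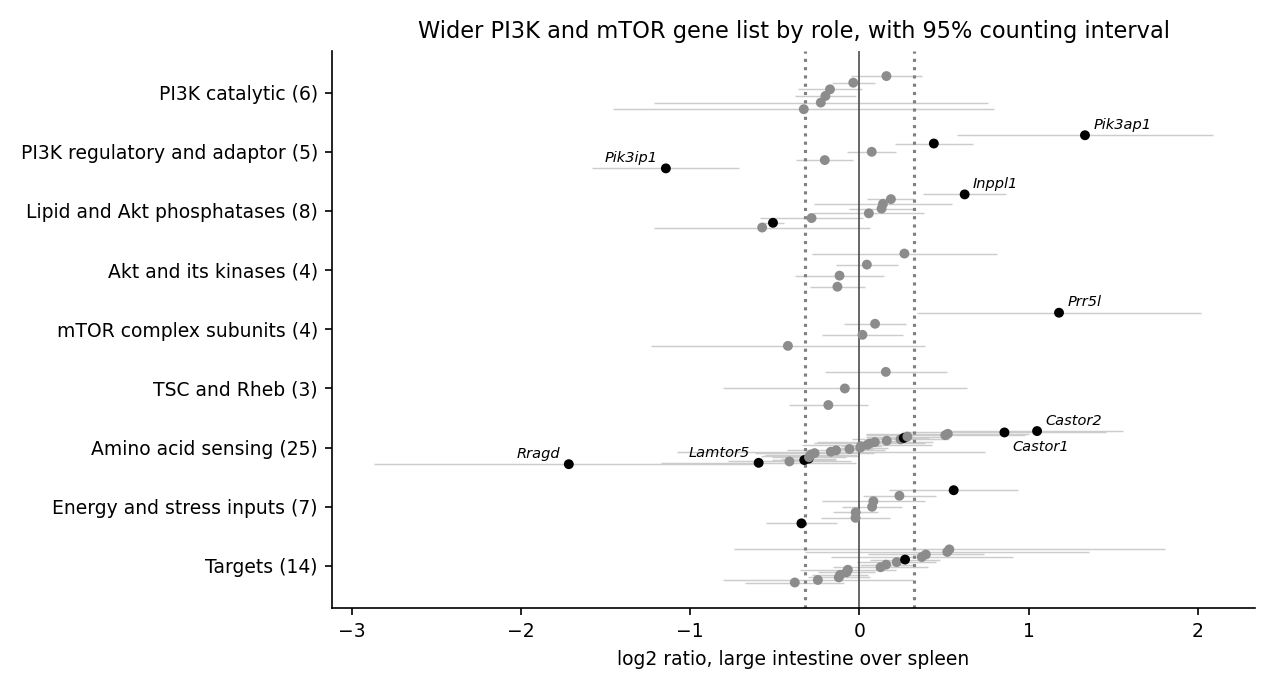
Ratio of large intestine over spleen (log2) with 95% counting intervals for the 76 tested genes of the wider PI3K and mTOR list, grouped by role with the number of genes in brackets. Dotted lines mark 25% more in either library, black points are the genes named in the text, and the 8 genes past 1.5-fold carry their symbols. Each role with more than 4 genes has points on both sides of 0.

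Among the genes around PI3K, Pik3ap1 and Pik3ip1 differed most. Both are of the regulatory and adaptor role, in which 2 of the 5 tested genes were within 25% and the median log2 ratio was 0.07. Pik3ap1, an adaptor that recruits PI3K below antigen and innate receptors, had 26.7 RPKM in splenic and 70.2 RPKM in intestinal Treg cells (log2 ratio 1.33, interval 0.58 to 2.09), with each of its 7 peaks higher in large intestine. Pik3ip1, a membrane inhibitor of PI3K, had 67.1 and 31.1 RPKM (log2 ratio -1.14, interval -1.58 to -0.71), and none of its 4 peaks was higher in large intestine. These values were 1.20 and -1.26 after GC correction. The regulatory subunit gene Pik3r2 had 45.7 and 64.2 RPKM (log2 ratio 0.44, interval 0.21 to 0.67), and 0.12 after GC correction (interval -0.11 to 0.35).

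Among the lipid phosphatases, Inppl1, which encodes the SHIP2 relative of Inpp5d, had 46.1 RPKM in splenic and 73.5 RPKM in intestinal Treg cells (log2 ratio 0.62, interval 0.38 to 0.87). Inpp4b, which acts on the product of SHIP enzymes, was marked by 265 peaks that summed to 2873 and 2081 RPKM (log2 ratio -0.51, interval -0.58 to -0.44). After GC correction these ratios were 0.46 and -0.30.

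In the mTOR complexes and their amino acid inputs, the larger differences were in genes with a low summed signal. A low sum can come from a short gene with few peaks, and the level per length of these genes is not given. Prr5l, a partner of the Rictor complex, had 13.2 RPKM in splenic and 31.6 RPKM in intestinal Treg cells (log2 ratio 1.18, interval 0.34 to 2.02). The arginine sensor Castor1 had 21.98 and 41.5 RPKM (log2 ratio 0.86, interval 0.25 to 1.46), and its paralogue Castor2 had 21.5 and 46.6 RPKM (log2 ratio 1.05, interval 0.54 to 1.56). Rragd, a Rag GTPase that brings mTOR to the lysosome, had 29.6 and 8.96 RPKM (log2 ratio -1.72, interval -2.87 to -0.57). Lamtor5, a subunit of the lysosomal anchor of the Rag GTPases, had 41.8 and 28.4 RPKM (log2 ratio -0.60, interval -1.17 to -0.02), and Flcn, an activator of that module, had 120.0 and 148.7 RPKM (log2 ratio 0.26, interval 0.11 to 0.41). The sestrin genes Sesn1 and Sesn3, which encode stress-induced restraints on mTOR, were higher in spleen, and the third of the family, Sesn2, was higher in large intestine. Sesn1 had 121.3 and 101.6 RPKM (log2 ratio -0.30, interval -0.46 to -0.14), Sesn3 had 274.2 and 225.7 RPKM (log2 ratio -0.33, interval -0.51 to -0.14), and Sesn2, named after its values were seen, had 74.0 and 93.2 RPKM (log2 ratio 0.28, interval 0.04 to 0.53). After GC correction the intervals of Castor1 (0.60, interval -0.0026 to 1.20), Lamtor5 (-0.34, interval -0.91 to 0.24), Flcn (0.10, interval -0.05 to 0.26), Sesn1 (-0.16, interval -0.32 to 0.0008) and Sesn2 (0.13, interval -0.11 to 0.38) included 0.

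Among the energy inputs and targets, Ddit4, a stress-induced inhibitor of mTOR, had 14.4 RPKM in splenic and 22.1 RPKM in intestinal Treg cells in its 1 peak (log2 ratio 0.56, interval 0.18 to 0.94), and 0.23 after GC correction (interval -0.15 to 0.61). Prkag2, a regulatory subunit of the energy sensor AMPK, had 259.7 and 211.3 RPKM (log2 ratio -0.34, interval -0.55 to -0.13). Foxo3, a transcription factor that Akt excludes from the nucleus, had 286.5 and 356.7 RPKM (log2 ratio 0.27, interval 0.06 to 0.48), and 0.12 after GC correction (interval -0.09 to 0.33). The part of GC content in these differences, and in those of the 9 genes, was not tested beyond the correction given.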

How the data were processed

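The authors aligned single-end 75-nt reads to mm10 with Bowtie2. MACS2 peaks, called per tissue over the input, were merged. The input was chromatin of splenic Treg cells, so the intestinal peaks had no input of their own tissue. The deposited values are mean RPKM coverage per merged peak, averaged over depth-scaled coverage tracks. The table's name calls them raw counts, yet they are not whole numbers, so no count test was run. Value times length was a whole multiple (within 0.05) of 1 step per library in 100% of the peaks low enough to tell. Mapped reads were inferred from this step by assuming 20-bp bins, a size that the paper's methods do not give.

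Peaks were assigned by midpoint to GENCODE M21 gene bodies. Genes were tested with at least 20 RPKM over both libraries. Log2 ratios used a pseudocount of 0.5 RPKM, which understates the change of low genes. Counting intervals took a read to cover 200 bp. The GC correction used the median ratio of peaks by GC content in GRCm38. The level per length is value times overlapping length over gene length. The ratio was checked on simulated reads that covered the same 200 bp and had no GC effect, so the check cannot show whether the intervals hold for real reads. Neighbours were the nearest protein-coding genes with at least 20 RPKM that did not overlap. Those of Mtor, Rptor, Tsc1 and Pik3r1 are not given. Of the wider list, genes past 1.5-fold were named, and then the 4 in each direction with the interval bound farthest from 0. Sequences came from the RefSeq GRCm38.p6 tables. Python 3.11.15 with pandas 2.3.3 was used. The members, lists and the 4 pairs compared were chosen with earlier results of these data known. A further marker of the list is not reported here.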

Additional observations from a re-analysis of the deposited data

How the results depend on the processing

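The member and wider-list ratios were recomputed with other scaling, pseudocount, peak assignment and peak weighting and with GC correction, and the wider list also with other filters. The differences between parts of a gene were recomputed under 4 of these settings, and the neighbours under none. The length weighting with weighted totals, the GC correction fitted on peaks of 1 kb or more and the GC correction with length weighting were added after seeing the data. No member whose interval lay off 0 in the setting used above changed sign. Rptor, Rictor, Tsc1 and Pik3r1, whose intervals included 0 in that setting, took both signs, and each had an interval off 0 in some other setting. That of Rptor was 0.03 to 0.24 with the deposited scaling and -0.17 to -0.0054 with GC correction and length weighting. Akt1 ranged from 0.06 to 0.41, Tsc2 from 0.14 to 0.43 and Pik3cd from -0.57 to -0.06. The 2 members over 25% higher in large intestine became 1 under median-of-ratios scaling, a pseudocount of 5, peaks wholly inside the gene or assignment to the nearest transcript start, and 0 under each form of GC correction and under length weighting with weighted totals. The 1 member past it in spleen became 0 under length weighting of either form, with the strongest peak alone and with peaks of 1 kb or more. Of the wider list, the 13 genes past it in large intestine became 0 of 38 with a filter of 200 RPKM, 8 with the nearest start, 7 with GC correction, 8 with that correction fitted on peaks of 1 kb or more, 6 with peaks of 1 kb or more, and 6 with GC correction and length weighting. The 11 in spleen became 5 with the 200 RPKM filter, 7 with the strongest peak, 4 with peaks of 1 kb or more and 6 with GC correction and length weighting. The causes were not tested beyond these settings. No paired analysis was possible because each tissue had 1 library, so no replicate could be left out. With reads taken to cover 75 bp, 7 members in place of 5 had an interval off 0, with GC correction 2 did, and with peaks wholly inside the gene 4 did. With peaks of 1 kb or more 7 did, and with GC correction fitted on such peaks 3 did. With the deposited scaling, the strongest peak and each length weighting without GC correction 6 did.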
